A study of Mus musculus with 3 samples.

Results

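The comparison concerned an RNA-seq library of induced cardiomyocytes (iCMs) labelled GMTMM and a library of the infarct fibroblasts from which such cells are made. It covered every protein-coding gene with 50 or more counts in at least 1 of both libraries, which selected 11509 of 22046 protein-coding genes and of 54532 genes in all. MICFs are fibroblasts taken from the hearts of Myh6-mCherry mice 5 days after infarct surgery. They received no virus and were cultured as long as the iCMs, for 4 weeks, and no sort is named for them. By their label and the study, the GMTMM-iCMs were MICFs transduced with doxycycline-driven lentiviruses for Gata4, Mef2c, Tbx5, Myocd and Mesp1. The counts of Mesp1 and Sall4, given below, do not match that cocktail. The cells were given doxycycline at 1 µg/ml and sorted after 4 weeks for mCherry driven by the Myh6 promoter. The other iCM library, GMTMS-iCMs, was made in the same way with Sall4 in place of Mesp1. Each iCM library was a mixture of 5 sorted samples. The mice were 8 weeks old at surgery. Their sex and whether the MICFs had doxycycline are not given in the sources used here.

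Each condition had 1 library, so no value below has a replicate check and no p-value was computed. The library totals were 11861773 counts in MICFs, 11904484 in the library labelled GMTMM and 10624118 in GMTMS-iCMs, with at least 1 count for 21178, 21021 and 20309 genes. A fold is the ratio of the FPKM (counts scaled to gene length and library depth) that the authors deposited, with an exact 95% Clopper-Pearson interval on the counts that covers counting error only. A gene was called higher or lower past a 2-fold ratio. In log2 ratios, calls and list medians, counts below 3 were set to a floor of 3 counts. Where a library had 0 counts, the fold is the ratio at that floor. It is written as at least that fold and is not a bound of the interval. Where both libraries had counts, the printed fold uses the counts without the floor. Virus, factors, sorting and any doxycycline were all absent from MICFs or not stated for them, so their parts in a difference cannot be told apart. Y-linked counts, given below, also differed between the libraries, so any part of the animals' sex cannot be told apart either.

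The counts of the cocktail factors did not match the label of the iCM library. Sall4 (ENSMUSG00000027547, GRCm38 chromosome 2 from 168748332 to 168767943), a zinc finger factor of the early embryo, went from 0 counts in MICFs to 1060 in the library labelled GMTMM, at least 435-fold higher. Mesp1 (ENSMUSG00000030544, chromosome 7 from 79792241 to 79793788), a bHLH factor of the early cardiac mesoderm, had 0 counts in all 3 libraries, although it and not Sall4 belongs to the GMTMM cocktail. Sall4 counts in GMTMS-iCMs, where the factor was delivered, were 1190. The label was kept as given, and the library is called the library labelled GMTMM throughout.

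Of the other factors, Tbx5 had 1 count in MICFs and 670 in the library labelled GMTMM, an 825-fold ratio with an interval from 148 to 32648. Myocd, the coactivator of serum response factor, had 8 and 342 (52.7-fold, 26.4 to 123). Gata4 was already counted in MICFs, with 889 counts against 2040 (2.83-fold, 2.61 to 3.06). Mef2c differed little, with 1014 and 1071 counts (1.30-fold, 1.19 to 1.42). Counts do not tell transcripts of the virus from those of the cell's own gene.

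Direct cardiac reprogramming forces fibroblasts to express transcription factors of the heart, after which some cells turn on sarcomere and calcium-handling genes. Fibroblasts of the infarct make collagen and other matrix, and such isolates usually hold macrophages and endothelial cells too. Interferon acts on such cells through its receptors, and virus and wound signals can act through NF-kB, which drives cytokines and chemokines.

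Across the 11509 genes, 1241 (10.8%) were higher in the library labelled GMTMM and 858 (7.46%) were lower, while 9410 (81.8%) stayed within 2-fold. The calls in each list below are to be read beside these shares. The upward differences were also the larger ones. At 4-fold, 494 genes were higher and 90 lower, and at 16-fold 148 were higher and 6 lower. The 95% interval lay wholly beyond 2-fold for 943 of the higher genes and 348 of the lower genes. The median log2 ratio was 0.01, with quartiles of -0.42 and 0.46. CPM, counts scaled to the library total alone, placed fewer genes above and more below, with 878 higher and 1650 lower, so that 34.7% of the called genes were higher instead of 59.1%. That scale shifted the median of all genes to -0.30, and the quantile-normalized log2(FPKM + 1) scale of the study to -0.11. Genes with 50 counts as their higher count numbered 22, with a median log2 ratio of -0.04, and the 21 genes just outside, with 49 counts, had a median of -0.10.

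**Figure D1:**
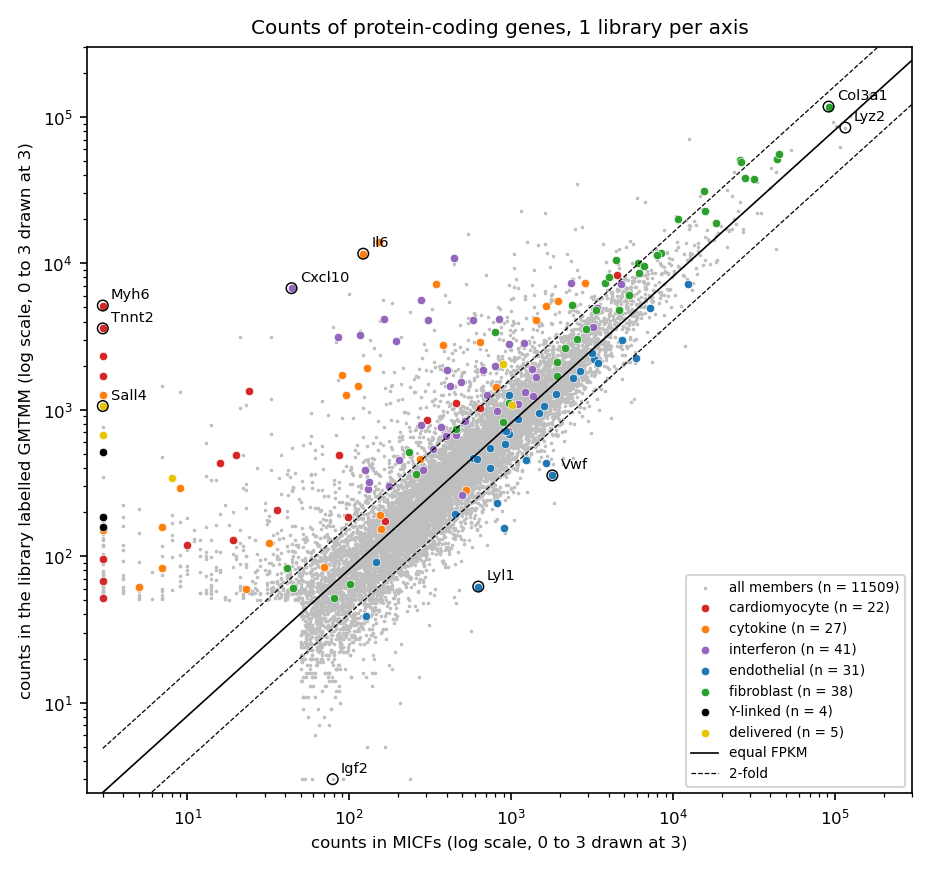
Counts of the 11509 protein-coding genes in MICFs (horizontal axis, log scale) and in the library labelled GMTMM (vertical axis, log scale), with genes of 6 lists and the delivered factors in colour, the line of equal FPKM solid and the 2-fold lines dashed. Counts of 0 to 3 are drawn at 3. Sall4 and several cardiomyocyte genes sit at the left edge, with 0 to 3 counts in MICFs, most cytokine and interferon genes lie above the upper dashed line, and all but 1 of the 31 endothelial genes lie below the line of equal FPKM or on it.

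Lower genes were more frequent where counts were few. In the lowest quintile of genes by the summed counts of both libraries, 15% were higher and 18.3% lower, and in the highest quintile 15% were higher and 1.87% lower. Gene length moved with the ratio as well. The shortest quintile had a median log2 ratio of 0.21 and the longest one of -0.10. The part of length and of count in the results below was not tested. A gene that reached the minimum in 1 library only tends to be called, and 406 genes reached it only in the library labelled GMTMM and 679 only in MICFs. Of the 10424 genes that reached it in both, 899 were higher and 504 lower.

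Genes of the cardiac sarcomere led the ranking of higher genes. Of 40 cardiomyocyte genes, 22 had enough counts, of which 18 were higher and none lower. Their median log2 ratio was 3.47, where counts below 3 stand at the floor. Only 9 of the 22 reached the minimum in MICFs too, of which 5 were higher (median 1.18). Myh6 (ENSMUSG00000040752, chromosome 14 from 54941921 to 54966927), the alpha myosin heavy chain whose promoter drives the sorted reporter, had 0 counts in MICFs and 5149 in the library labelled GMTMM, at least 2114-fold higher. The sort selects for activity of this promoter, and 22.6% of the gene's 50-base words also occur in another gene. Tnnt2, cardiac troponin T, had 3 and 3594 counts (1476-fold, 505 to 7160). Actc1, cardiac alpha actin, had 1 and 2313 counts, a 2849-fold ratio whose interval starts at 511. Myl7, the atrial regulatory light chain, had 0 and 1708 counts, at least 701-fold higher.

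These 4 genes had 0 to 3 counts in MICFs. Other sarcomere genes had lower counts in the library labelled GMTMM. Myl4, the atrial essential light chain, had 24 and 1338 counts (68.7-fold, 46 to 108). Tnnc1, troponin C, had 16 and 434 counts (33.4-fold), and the giant spring protein gene Ttn had 20 and 490 (30.2-fold, 19.3 to 49.9). Actn2, the Z-disc alpha-actinin, had 0 and 96 counts, which is at least 39.4-fold higher. Nppa, the atrial natriuretic peptide gene, had 0 and 52 counts, and its value is uncertain because exons of another gene overlap 61.5% of its exon bases. Genes that MICFs already expressed differed less. Des had 302 and 853 counts (3.48-fold, 3.05 to 3.98), Tpm1 had 4514 and 8276 (2.26-fold, 2.18 to 2.34), and Ankrd1 had 638 and 1031 (1.99-fold, 1.80 to 2.20).

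Some sarcomere and heart genes stayed under the minimum. Myl2, the ventricular light chain, had 0 counts in MICFs and 3 in the library labelled GMTMM, and Ckmt2, the sarcomeric mitochondrial creatine kinase, had 0 in both. The beta myosin heavy chain gene Myh7, with 0 and 29 counts, and Nppb, with 0 and 15, did not reach the minimum. In a bulk library, fewer cells of a type and less RNA per cell cannot be told apart. All 7 genes used as cardiomyocyte markers (Tnnt2, Actc1, Myh6, Tnni3, Actn2, Ttn and Ryr2) were higher in the library labelled GMTMM, from 7.08-fold for Tnni3 upward. These markers were chosen with earlier results of these data known, and the sort selects for activity of the Myh6 promoter.

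Serum response factor, with Myocd as its partner, binds the CArG box of muscle promoters. RefSeq promoter sequences (GRCm38.p6), from 250 bases before to 50 bases after the start site, held a CArG box on either strand in 5 of 19 cardiomyocyte genes with a sequence (26.3%), against 1.81% of 27025 genes in the table and 1.65% of 9088 members. Of the 16 cardiomyocyte genes with a sequence that were higher, 3 held it (18.8%), and Fhl2 and Myom1, which stayed within 2-fold, held it too. The windows of Actc1 and Myl7, genes that went from 1 and 0 counts to 2313 and 1708, are shown from 250 to 21 bases before the start, 5′ to 3′ on the strand of the gene, with the CArG box in capitals. A match is a description of the letters and not a measured site.
Actc1 (chr2:114052896-114053125, minus strand): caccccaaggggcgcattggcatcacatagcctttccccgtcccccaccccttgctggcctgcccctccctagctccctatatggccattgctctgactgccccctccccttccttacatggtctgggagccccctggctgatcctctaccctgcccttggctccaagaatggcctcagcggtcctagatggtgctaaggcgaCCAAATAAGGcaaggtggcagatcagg
Myl7 (chr11:5898803-5899032, minus strand): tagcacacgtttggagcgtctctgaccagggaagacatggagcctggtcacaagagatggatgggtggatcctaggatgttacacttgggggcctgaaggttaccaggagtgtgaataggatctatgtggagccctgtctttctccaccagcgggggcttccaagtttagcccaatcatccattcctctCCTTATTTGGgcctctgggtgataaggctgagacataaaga
The box began 47 bases before the start in Actc1 and 61 bases before it in Myl7. The sequence of Myh6 held no CArG box.

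Calcium handling and electrical genes were higher only in part. Of 14 calcium-handling members among 20 genes, 4 were higher and none lower (median log2 ratio 0.48). Ryr2, the calcium release channel of the sarcoplasmic reticulum, had 0 and 763 counts, at least 313-fold higher. Atp2a2, the calcium pump, had 3275 and 5952 counts (2.24-fold, 2.15 to 2.34), and Jph2, which ties the reticulum to the cell membrane, had 598 and 1848 (3.81-fold). The pump's regulator Pln had 0 counts in both, and the sodium-calcium exchanger Slc8a1 had 597 and 293 (1.65-fold less). Of 11 ion channel members among 23, 4 were higher and 1 was lower (median 0.88). Hcn4, the pacemaker channel, had 0 and 490 counts, at least 201-fold higher. Kcnj5 had 23 and 310 counts (16.6-fold) and Kcnh2 had 11 and 150 (16.8-fold), both potassium channels. The lower gene was Kcna5, with 87 and 30 counts (2.35-fold lower, 1.54 to 3.69).

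Most junction genes stayed within 2-fold. Of 10 intercalated disc members among 14, 3 were higher (30%, against 10.8% of all genes) and 1 lower (10%, against 7.46%). Their median log2 ratio was 0.64. Dsp, the desmosome linker, had 4 and 223 counts (68.7-fold, 26.4 to 254), and Gja1, connexin 43, had 1298 and 2941 (2.79-fold, 2.61 to 2.98). Gja5, connexin 40, had 567 and 31 counts and was 14.8-fold lower (10.3 to 22.1), with 24.2% of its words shared with another gene. Endothelial cells of arteries also express Gja5.

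Cardiac transcription factors that were not delivered mostly did not differ past 2-fold. Of 15 members among 22 such genes, 3 were higher and none lower (median 0.49). They were Tbx3, a factor of the conduction system, with 45 and 293 counts (8.02-fold, 5.85 to 11.2), Gata6 with 324 and 617 (2.35-fold), and Hey2 with 37 and 89 (2.96-fold). Nkx2-5 and Isl1, both early cardiac factors, had 0 counts in both libraries. Tbx20 had 5005 and 4251 counts (1.05-fold) and Hand2 had 151 and 114 (1.08-fold less), so both were present in MICFs at like FPKM.

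Many smooth muscle genes were higher as well, while few skeletal muscle genes had enough counts. Of 19 smooth muscle members among 21, 11 were higher and none lower (median 1.03), with 7 higher on the study's scale and 6 in CPM. The higher genes include Myocd, a delivered factor, and Des and Ldb3, which are also on the cardiomyocyte list. Myh11, the smooth muscle myosin, had 1867 and 4530 counts (2.99-fold, 2.83 to 3.16), and Acta2 had 4672 and 9262 (2.44-fold, 2.36 to 2.53). Of 10 pericyte members among 11, 5 were higher and none lower (median 0.95), led by Rgs5 with 1054 and 3519 counts (4.11-fold). Only 5 of 26 skeletal muscle genes had enough counts, none of them with 50 counts in MICFs. All 5 were higher (median 3.87), but genes that reach the minimum in this library only tend to be called higher. In the library labelled GMTMM, 15 of the 26 had 3 counts or fewer and 9 had 0. Acta1, skeletal alpha actin, had 2 and 666 counts (410-fold, 113 to 3394). The myogenic factors Myod1 and Myog had 0 counts in both libraries.

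Fibroblast genes were not lower in the sorted library. Of 38 fibroblast members among 39, 12 were higher and none lower (median log2 ratio 0.79). On the study's scale 4 were higher and in CPM 6, with none lower on either, and the summed FPKM of the list was 4920 in MICFs and 8758 in the library labelled GMTMM. Col1a1 (ENSMUSG00000001506), the main fibrillar collagen chain, had 26135 and 50948 counts (2.4-fold, 2.37 to 2.44). Postn, a matrix protein of activated fibroblasts, had 4429 and 10492 counts (2.92-fold, 2.82 to 3.02). Timp1, an inhibitor of matrix metalloproteinases, had 792 and 3414 (5.31-fold, 4.91 to 5.74). Col3a1, with 91516 and 117523 counts, was 1.58-fold higher in FPKM and within the limit. The resident fibroblast factor Tcf21 had 890 and 823 counts (1.14-fold) and the receptor gene Pdgfra had 2559 and 3056 (1.47-fold).

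Other matrix genes were mostly higher or within 2-fold. Of 27 collagen members among 32, 8 were higher and 1 lower (median 0.78). On the study's scale 1 was higher and none lower (median 0.35), and in CPM 4 were higher and 1 lower. The lower chain was Col23a1, with 151 and 58 counts (2.11-fold lower, 1.55 to 2.91). Of 33 matrix turnover members among 36, 10 were higher and none lower (median 0.62), with 6 higher on the study's scale. Adamts4, which cuts proteoglycans, had 1252 and 14067 counts (13.8-fold, 13.1 to 14.7). The collagenase gene Mmp13 had 190 and 1803 (11.7-fold, 10.1 to 13.6).

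Signalling and adhesion genes were called higher more often than lower in each list below. Higher calls made up from 20% (Notch) to 31.25% (Wnt) of members, against 10.8% of all genes. Lower calls made up from 0% (Notch) to 11.54% (integrin and adhesion), against 7.46% of all genes. Of 29 TGF-beta and BMP members among 34, 8 were higher and 2 lower (median 0.46). The activin subunit gene Inhba had 408 and 2244 counts (6.78-fold), and the lower genes were Id1, with 519 and 168 (2.51-fold lower), and the ligand gene Bmp4, with 334 and 124 (2.19-fold lower). Of 16 Wnt members among 36, 5 were higher and 1 lower (median 0.59, and -0.14 for the 12 members with 50 counts in both libraries), among them the ligand gene Wnt11 with 19 and 85 counts (5.51-fold, 3.32 to 9.6). Of 15 Notch members among 18, 3 were higher and none lower, with a median of 0.14 that was negative on the study's scale and in CPM. The target genes Heyl and Hey1 had 592 and 1660 counts (3.45-fold) and 444 and 1040 (2.89-fold). Of 20 FGF and IGF members among 28, 5 were higher and 2 lower (median 0.57). Fgf23, the phosphate-regulating hormone gene, had 23 and 1080 counts (57.8-fold, 38.3 to 91.6). Of 26 integrin and adhesion members among 28, 8 were higher and 3 lower, with a median of 0.12 that was negative in CPM. Icam1, an adhesion receptor for leukocytes, had 1048 and 11510 counts (13.5-fold, 12.7 to 14.4).

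Among the cell type lists, endothelial genes had calls only downward. Of 31 members among 32, none was higher and 8 (25.8%, against 7.46% of all genes) were lower, with a median log2 ratio of -0.34. Lyl1, a bHLH factor of blood and vessel cells, had 627 and 62 counts (8.21-fold lower, 6.32 to 10.8). Sox18, a factor of the endothelium, had 901 and 155 (4.72-fold lower, 3.98 to 5.63). Vwf, the clotting factor carrier, had 1798 and 356 (4.10-fold lower, 3.66 to 4.61). Of the general endothelial genes, Kdr was lower past 2-fold, while Pecam1 and Cdh5 differed less. Pecam1 had 7237 and 4932 counts (1.19-fold less) and Cdh5, the junction cadherin, had 12354 and 7239 (1.39-fold less). The remaining lower genes were Egfl7, Plvap, Kdr, Apln and Prox1, with ratios from 2.13-fold for Apln to 3.09-fold for Egfl7.

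Macrophage genes were among the most abundant in both libraries, although neither label names these cells. Lyz2, lysozyme, and Apoe held the first and second place by FPKM in MICFs (6135 and 5331) and the second and first in the library labelled GMTMM (5495 and 5711). The 10 highest genes of the library labelled GMTMM also included mt-Co1, Fth1, Psap, Selenop, B2m, Eef1a1 and the chemokine genes Ccl8 and Cxcl1, not all of them macrophage genes. Of 32 macrophage members among 36, 2 were higher (6.25%, against 10.8% of all genes) and 4 lower (12.5%, against 7.46%). Their median was -0.05, against -0.65 with 8 lower on the study's scale. The summed FPKM of the list was 18900 in MICFs and 18740 in the library labelled GMTMM. Adgre1, the F4/80 antigen, had 9851 and 8117 counts (1.01-fold, 0.986 to 1.05). Csf1r, the receptor that keeps macrophages alive, had 21572 and 12838 (1.36-fold less). Of 26 lysosome members, 2 were higher (7.69%, against 10.8% of all genes) and none lower, with a median of 0.06 that was negative on the study's scale and in CPM. How far macrophage RNA took part in the other results was not tested.

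The macrophage genes past 2-fold went both ways. Cx3cr1, the fractalkine receptor, had 454 and 48 counts (7.68-fold lower, 5.69 to 10.6). Lyve1 had 377 and 92 counts (3.33-fold lower), the scavenger receptor gene Cd163 had 407 and 115 (2.87-fold lower), and Mertk, a receptor for dying cells, had 2313 and 812 (2.31-fold lower). The higher genes were Cd14, the co-receptor for bacterial lipopolysaccharide, with 2219 and 11593 counts (6.44-fold, 6.15 to 6.74), and Clec4d with 547 and 1568 (3.53-fold).

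**Figure D2:**
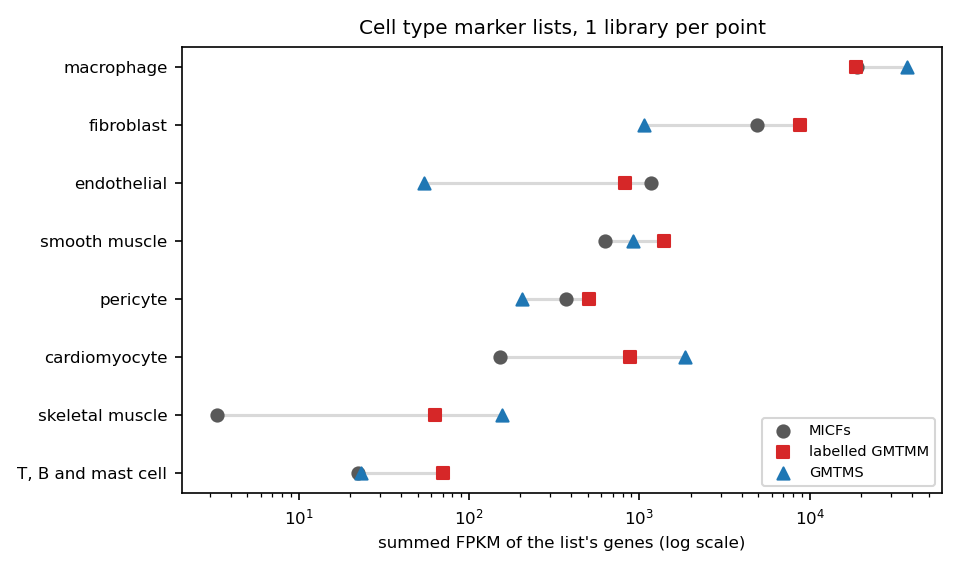
Summed FPKM (horizontal axis, log scale) of 8 cell type lists in MICFs, the library labelled GMTMM and GMTMS-iCMs, 1 point per library. The cardiomyocyte list reached 152, 885 and 1855, the fibroblast list 4920, 8758 and 1059, the endothelial list 1166, 828 and 54.8, and the macrophage list 18900, 18740 and 37550, in that order.

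Low counts of T cell and mast cell genes appeared in the library labelled GMTMM. Of 17 genes for T, B and mast cells, 9 had enough counts and 7 were higher (median log2 ratio 4.13), and these 7 reached 50 counts only in the library labelled GMTMM. The 2 members with 50 counts in both libraries had a median of 0.07 and neither passed 2-fold. Mcpt4, a mast cell protease, had 2 and 350 counts (216-fold, 59.2 to 1787). The T cell receptor subunit gene Cd3e had 4 and 57 (17.6-fold, 6.49 to 66.6), Cd8a had 1 and 63 (77.6-fold, 13.4 to 3113), and the granzyme gene Gzmb had 11 and 126 (14.1-fold). The B cell gene Cd79a, with 1 and 8 counts, was under the minimum. The summed FPKM of the list was 22.2 in MICFs, 70.1 in the library labelled GMTMM and 23.3 in GMTMS-iCMs.

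Epicardial and neural genes were few. Of 9 epicardial members among 14, 4 were higher and none lower (median 0.51, and 0.10 for the 5 members with 50 counts in both libraries), namely Lrrn4 with 7 and 478 counts (84.1-fold, 40.5 to 210), Krt18 with 8 and 140, the epicardial factor Wt1 with 8 and 128 (19.7-fold), and Upk3b with 23 and 58. Of 6 neural and glial members among 12, 2 were higher and 1 lower (median -0.21). The lower gene was Tubb3, a neuronal tubulin, with 209 and 25 counts (6.79-fold lower), and the glial gene Sox10 was under the minimum.

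Genes induced by interferon were mostly higher. Of 41 members among 42, 28 were higher and none lower (68.3%, against 10.8% of all genes), with a median log2 ratio of 1.56, and the summed FPKM of the list was 1337 in MICFs and 4004 in the library labelled GMTMM. Cxcl10, a chemokine that attracts T cells, had 44 and 6761 counts (189-fold, 141 to 261). Rsad2, the antiviral enzyme viperin, had 446 and 10839 (29.9-fold, 27.2 to 33). Ifit1, a sensor of viral RNA ends, had 277 and 5659 (25.2-fold, 22.3 to 28.5), and Isg15, a ubiquitin-like modifier, had 308 and 4071 (16.3-fold, 14.5 to 18.3). The pathway's own factor gene Irf7 had 489 and 1553 counts (3.91-fold). Ifnb1, the interferon beta gene, belongs to no list here and was looked up after the values were seen, with 0 and 142 counts (at least 58.3-fold higher).

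The interferon-inducible GTPases, which attack the vacuoles of microbes, were higher in 14 of 17 members (median 2.67). Gbp5 had 183 and 5317 counts (35.8-fold, 30.9 to 41.7), Gbp2 had 527 and 7190 (16.8-fold), and Iigp1 had 332 and 3512 (13-fold). Antigen presentation genes followed with smaller ratios. Of 20 MHC class I members, 7 were higher and none lower (median 0.89), with 4 higher on the study's scale. H2-K1 had 14665 and 29008 counts (2.44-fold, 2.39 to 2.49) and the peptide transporter gene Tap1 had 669 and 2026 (3.73-fold). The 27.5-fold ratio of H2-Q6 is uncertain because 35% of its words lie in other genes. Of 10 MHC class II members among 13, 7 were higher and 1 lower (median 1.26), with 3 higher and none lower on the study's scale. Cd74, the invariant chain, had 2677 and 5264 counts (2.42-fold), while the class II master regulator gene Ciita had 138 and 43 (2.61-fold lower, 1.84 to 3.76).

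Promoters of interferon-induced genes often carry the interferon-stimulated response element, searched here as the core GAAANNGAAA on both strands in the same sequences. It was found in 20 of 31 interferon members with a sequence (64.5%) and in 9 of 10 GTPase members (90%), against 3.99% of all genes in the table and 4.03% of members. Of the 21 interferon members with a sequence that were higher, 13 held it (61.9%), so within the list it did not mark the higher genes. The windows of Cxcl10 and Rsad2, the genes of the list with 189-fold and 29.9-fold ratios, are shown with the core in capitals.
Cxcl10 (chr5:92348910-92349139, minus strand): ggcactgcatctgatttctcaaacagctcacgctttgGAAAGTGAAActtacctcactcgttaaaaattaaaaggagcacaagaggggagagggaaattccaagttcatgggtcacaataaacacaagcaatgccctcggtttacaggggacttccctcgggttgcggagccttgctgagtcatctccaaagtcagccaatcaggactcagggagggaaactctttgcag
Rsad2 (chr12:26456473-26456702, minus strand): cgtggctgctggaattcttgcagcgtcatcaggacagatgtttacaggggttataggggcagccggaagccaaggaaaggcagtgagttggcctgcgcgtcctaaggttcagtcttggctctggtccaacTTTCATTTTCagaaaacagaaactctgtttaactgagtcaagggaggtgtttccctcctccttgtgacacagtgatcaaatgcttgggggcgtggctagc
The core began 213 bases before the start in Cxcl10 and 120 bases before it, on the opposite strand, in Rsad2. Ddx60, whose window also holds the core, had 498 and 260 counts (1.55-fold less), so a match did not go with a higher count in every gene.

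Cytokine and chemokine genes were mostly higher too. The cytokine list also holds genes that are not cytokines, such as the enzyme gene Acod1 and the receptor gene Il1r1. Of 27 cytokine members among 30, 23 (85.2%) were higher and none lower, with a median log2 ratio of 3.18 (1.94 for the 19 members with 50 counts in both libraries, 15 of them higher), and the summed FPKM of the list was 271 in MICFs and 1929 in the library labelled GMTMM. Il6 had 122 and 11635 counts (117-fold, 98.3 to 142). Il1rn, which encodes the natural antagonist of the interleukin 1 receptor, had 153 and 13996 (113-fold, 96.1 to 133). Acod1, the itaconate-making enzyme of activated macrophages, had 2 and 1252 counts (771-fold, 213 to 6375). Il1b had 378 and 2786 counts (9.08-fold), whereas Tnf had 807 and 1432 (2.19-fold). Osm went the other way within the limit, with 529 and 282 counts (1.52-fold less).

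Of 23 chemokine members among 32, 14 were higher and none lower (median 1.69, and 1.01 for the 19 members with 50 counts in both libraries). Cxcl3, a neutrophil attractant, had 1 and 522 counts (643-fold, 115 to 25446). Cxcl5 had 441 and 9903 counts (27.7-fold, 25.1 to 30.5) and Cxcl1 had 2554 and 34645 (16.7-fold, 16.1 to 17.4), both ligands of the same receptor. Ccl5, a T cell attractant, had 21 and 1021 counts (59.9-fold, 39 to 97.2), and Ccl2, which recruits monocytes, had 3719 and 13516 (4.48-fold, 4.32 to 4.64). Of 16 complement members among 19, 5 were higher and none lower (median 0.83), with C3 at 5459 and 14293 counts (3.23-fold, 3.13 to 3.33).

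NF-kB sites, searched by their consensus on both strands, lay in the sequences of 5 of 15 chemokine members (33.3%) and 4 of 20 cytokine members (20%), against 9.55% of all genes and 12.7% of members. Among cardiomyocyte members 8 of 19 (42.1%) held one. The windows of Il6 and Cxcl3 are shown with the site in capitals, as genes with 117-fold and 643-fold ratios.
Il6 (chr5:30012864-30013093, plus strand): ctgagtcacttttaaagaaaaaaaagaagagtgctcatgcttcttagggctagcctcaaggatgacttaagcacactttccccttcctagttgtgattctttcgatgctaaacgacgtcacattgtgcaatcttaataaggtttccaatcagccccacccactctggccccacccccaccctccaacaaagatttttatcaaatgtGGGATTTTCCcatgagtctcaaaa
Cxcl3 (chr5:90785851-90786080, plus strand): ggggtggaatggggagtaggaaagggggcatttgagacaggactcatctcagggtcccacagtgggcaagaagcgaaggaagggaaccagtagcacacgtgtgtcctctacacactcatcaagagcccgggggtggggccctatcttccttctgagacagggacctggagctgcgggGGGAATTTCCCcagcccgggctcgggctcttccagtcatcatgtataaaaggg
The site began 44 bases before the start in Il6, and in Cxcl3 overlapping matches began 73 and 72 bases before it.

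**Figure D3:**
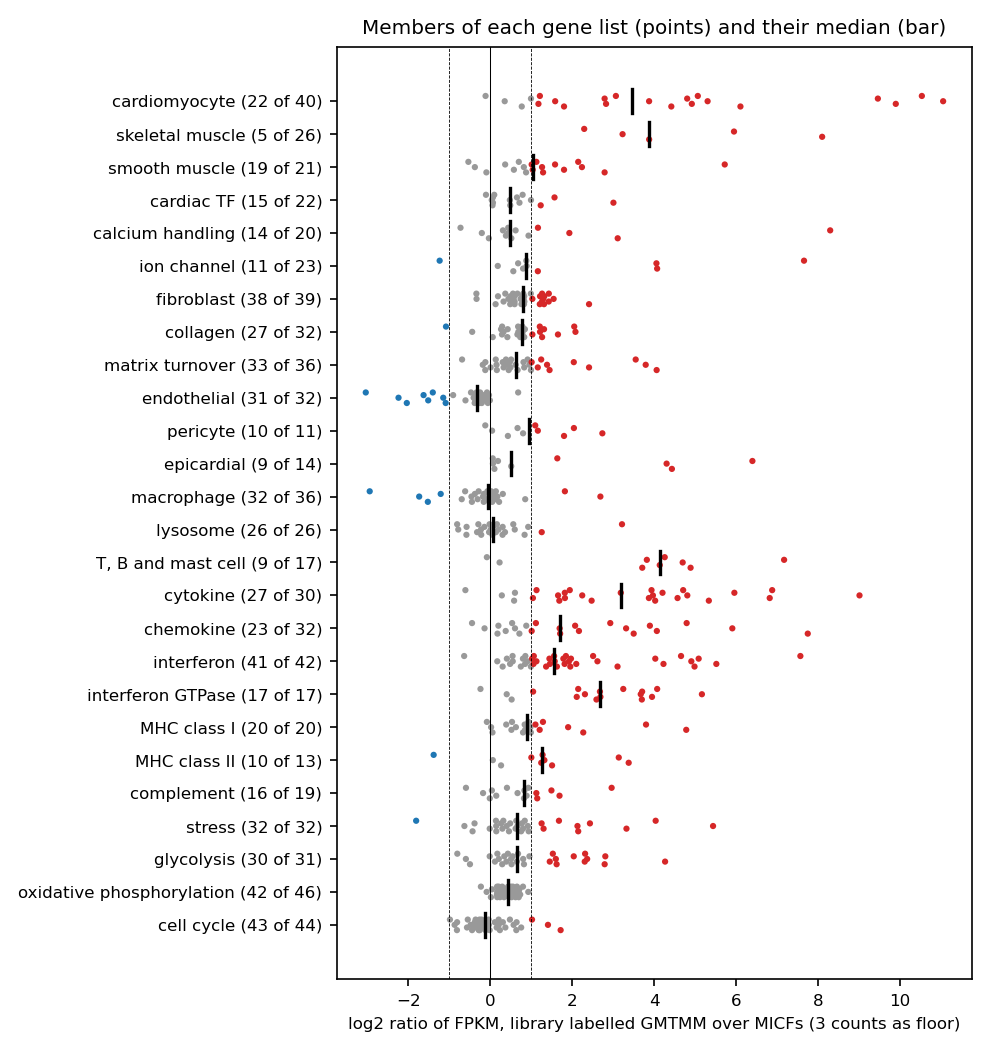
Log2 ratio of FPKM (horizontal axis, library labelled GMTMM over MICFs, 3 counts as the floor) of each member of 26 gene lists, with members past 2-fold coloured (red higher, blue lower) and the median as a bar. Dashed lines mark 2-fold. Of the lists with high medians, 7 of 9 T, B and mast cell members, 5 of 5 skeletal muscle and 13 of 22 cardiomyocyte members reached 50 counts only in the library labelled GMTMM. The endothelial median lies at -0.34, and 18 of 22 cardiomyocyte members and 23 of 27 cytokine members lie right of the upper dashed line.

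Metabolic and stress lists differed in their number of calls. Of 30 glycolysis members among 31, 11 were higher and none lower (median 0.66). Hk2, a hexokinase, had 388 and 6052 counts (19.2-fold, 17.3 to 21.3), and the glucose transporter gene Slc2a1 had 646 and 2605 (4.97-fold). Oxidative phosphorylation had no call in 42 members among 46, with a median of 0.44 that became slightly negative (-0.02) on the study's scale. Of 36 lipid members among 43, 3 were higher (8.33%) and 2 lower (5.56%), both below the shares of all genes (10.8% and 7.46%, list median -0.03). Among them, Angptl4, an inhibitor of lipoprotein lipase, had 500 and 1774 counts (4.37-fold). G0s2, an inhibitor of fat breakdown, had 707 and 120 (4.78-fold lower, 3.94 to 5.85). Of 32 stress members, 9 were higher and 1 lower (median 0.65). Hspa1a, a heat shock protein gene, had 83 and 2913 counts (43.2-fold), with 66.3% of its words in another gene, and Hspb7, a small heat shock protein of muscle, had 83 and 674 (10-fold, 7.95 to 12.7). The lower gene was Trib3, with 138 and 32 counts (3.50-fold lower). Of 43 cell cycle members among 44, 3 were higher (6.98%, against 10.8% of all genes) and none lower (median -0.13). They were Mki67 with 665 and 1432 counts (2.65-fold, 2.42 to 2.91), Mybl2 with 30 and 80, and the cell cycle inhibitor gene Cdkn1a with 3482 and 5725 (2.03-fold, 1.94 to 2.11).

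The 20 genes with the largest rise, ranked by the interval bound nearest to 1, drew on these groups. Cardiac and other muscle genes gave 7 of them (Myh6, Myl7, Actc1, Tnnt2, Ryr2, Hcn4 and Acta1). Factors of either cocktail gave 2, Tbx5 and Sall4, the latter not in the cocktail of the label. The cytokine, chemokine and interferon lists gave 5 (Acod1, Cxcl10, Cxcl3, Il6 and Il1rn). Of the rest, Has1, a hyaluronan synthase, had 7 and 1458 counts (257-fold, 124 to 639). Tnip3, an inhibitor of NF-kB signalling, had 21 and 3115 (183-fold, 119 to 296), and Nr4a3, an early-response nuclear receptor, had 75 and 7955 (131-fold, 104 to 166). Rpl29, a ribosomal protein gene, had 9 and 1329 counts, and 47.9% of its words are shared with other genes, so its 182-fold ratio is uncertain.

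The remaining pair were Y-linked. Ddx3y counted 0 in MICFs and 1068 in the library labelled GMTMM (at least 439-fold higher), and Eif2s3y had 0 and 517, at least 212-fold higher. All 4 Y-linked genes on the list, with Uty at 184 and Kdm5d at 157 in the library labelled GMTMM, had 0 counts in MICFs, while their 4 X-linked partners stayed within 2-fold (median log2 ratio -0.33). Xist, the noncoding RNA of the inactive X chromosome, had 11855 counts in MICFs and 1618 in the library labelled GMTMM. Y-linked counts were thus present in the iCM libraries and not in MICFs, and the library labelled GMTMM held both Y-linked and Xist counts. For the other genes, any part of the animals' sex cannot be told apart from that of the treatment. The 363 X-linked members had a median log2 ratio of -0.05, against 0.01 for 11130 members on autosomes and scaffolds.

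The 20 largest falls were smaller and rested on fewer counts. Mmrn1, a matrix protein of platelets and endothelium, had 238 and 3 counts (64.4-fold lower, 21.8 to 314). Igf2, a fetal growth factor gene, had 79 and 0 counts, at least 21.4-fold lower, though exons of another gene overlap 64.5% of its exon bases. Kynu, an enzyme of tryptophan breakdown, had 129 and 5 counts (20.9-fold lower), and Lpar5, a receptor for lysophosphatidic acid, had 206 and 10 (16.7-fold lower). Sesn1, a stress-response gene of the p53 pathway, was the fall with the most counts, 1849 and 230 (6.53-fold lower, 5.69 to 7.52). Entpd4b and Srp54b are near-identical copies of other genes (100% and 99.8% of words shared) and are uncertain. The other falls were Gja5, Lyl1, Cx3cr1, Capn11, Lonrf2, Exoc3l2, Fam78a, Cmah, Gpr160, Scn3a and the zinc finger genes Zfp458, Zfp157 and Zfp329.

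**Figure D4:**
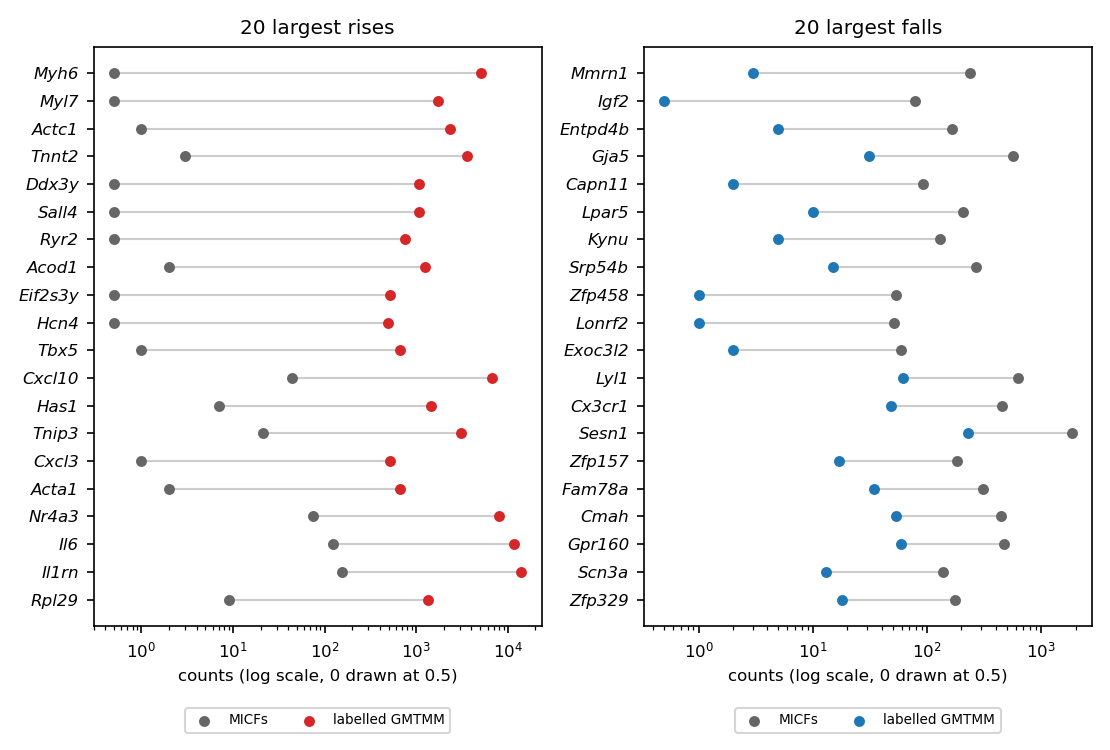
Counts (horizontal axis, log scale, 0 drawn at 0.5) of the 20 genes with the largest rise (left) and the 20 with the largest fall (right), grey for MICFs and coloured for the library labelled GMTMM, 1 library per point. Of the 20 rises, 7 have 0 counts in MICFs, whereas Igf2 alone among the falls has 0 in the library labelled GMTMM.

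Zinc finger genes were lower more often than higher. The families are those named in the deposited tables, and this one was chosen after its values were seen. Of 343 members of the C2H2 zinc finger family, 126 were lower (36.7%, against 7.46% of all genes) and 20 higher (5.83%), with a median log2 ratio of -0.61. Their counts were low, with medians of 171 in MICFs and 91 in the library labelled GMTMM, and the part of low counts in this share was not tested. Zfp157 had 184 and 17 counts (8.79-fold lower, 5.34 to 15.4) and Zfp329 had 176 and 18 (7.94-fold lower, 4.88 to 13.7). The higher genes of the family included Sall4, Wt1, Klf5 with 4 and 110 counts, and Hivep2 with 480 and 2701. Among 39 bZIP factors, a family that includes some early-response genes, 16 were higher (41%, against 10.8% of all genes) and 3 lower (7.69%, against 7.46%). Fosl2 had 2566 and 8936 counts, Nfil3 had 299 and 2549, and the clock output gene Dbp had 604 and 212.

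Values of the GMTMS library, which shares the MICF control, are given side by side for the genes above. The sarcomere genes had more counts there than in the library labelled GMTMM, with 14098 for Myh6, 6216 for Tnnt2, 4765 for Actc1 and 3305 for Ttn. Fibroblast genes had fewer, with 3306 for Col1a1, 653 for Postn and 43 for Tcf21, and endothelial genes too, with 107 for Pecam1 and 18 for Vwf. Interferon genes were high in both iCM libraries, and GMTMS-iCMs had 10253 counts for Cxcl10, 21652 for Rsad2 and 215 for Ifnb1. Some inflammatory and matrix genes had more counts in the library labelled GMTMM than in either other library. Il6 had 122 counts in MICFs, 11635 in the library labelled GMTMM and 772 in GMTMS-iCMs, and Cxcl5 had 441, 9903 and 457. Has1 had 7, 1458 and 94 counts. Ptx3, a pattern recognition protein gene, had 542, 15878 and 748 counts, and the endothelial selectin gene Sele had 99, 6136 and 301, both chosen after their values were seen. Il1rn and Acod1 showed the other order, with 30811 and 2532 counts in GMTMS-iCMs.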

How the data were processed

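RNA was sequenced from 3 mouse libraries, 1 per condition. Per the labels, the submitters' processing notes name HISAT2 2.0.5 and the mm9 build. However, 54495 of the 54532 gene identifiers are in GENCODE M21, and 53585 have its GRCm38 start and end, so coordinates are given on GRCm38. Which tool counted reads, whether strand was used and how multi-mapped reads were treated is not given in the sources used here. The authors deposited raw counts per gene and FPKM. The deposited FPKM equal counts divided by gene length and by a library size set by the DESeq2 size factors (1.26 for MICFs, 1.02 for GMTMM-iCMs and 0.811 for GMTMS-iCMs). These library sizes were 14389264, 11680913 and 9287868. The column abbreviated for cardiac myofibroblasts was taken as MICFs because the other columns name the cocktails.

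From these files, FPKM ratios, Clopper-Pearson 95% intervals and calls at 2-fold were computed for genes with 50 or more counts in at least 1 of both libraries, with a floor of 3 counts (0.253 CPM in MICFs and 0.252 in GMTMM-iCMs). A replicated test needs more than 1 library per condition and was not run. Log2 ratios and list medians use the floor. Genes were named by rule: the delivered factors and Mesp1, the 20 largest rises and falls by the interval bound nearest to 1, the first 3 genes of each of the gene lists with up to 4 members of largest rise and fall, and the 10 genes of highest FPKM in each library. Lists, members and rules were chosen with earlier results of these data known. Ifnb1, Ptx3, Sele, Xist and the transcription factor families with their genes, as well as the other genes not covered by the rule, were chosen after their values were seen.

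Shared sequence is the percent of 50-base words of the longest GENCODE M21 transcript found in another gene, or of exon bases in exons of another gene, and genes over 10% are uncertain. Among the genes given with values these also include Lyz2, Csf1r, Icam1, Cdkn1a, Mybl2, Egfl7, Hand2, Myh7 and Pln. Promoters are RefSeq sequences on GRCm38.p6. The alternatives were the study's scale (quantile-normalized log2 of FPKM + 1, difference over 1), CPM, TMM of edgeR, folds of 4 and 1.5, count minimums of 10 and 200 or of 50 in both libraries, all gene types and intervals wholly beyond 2-fold. The steps were tested on simulated counts that held counting error only, so that test does not cover the spread between cultures. Tools were edgeR 4.0.16 in R 4.3.3, and in Python 3.11.15 SciPy 1.17.1 for the intervals, pandas 2.3.3 and numpy 2.4.6 for the tables and matplotlib 3.10.9 for the figures.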

Additional observations from a re-analysis of the deposited data

How the results depend on the processing

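The counts of 1241 higher and 858 lower genes changed by over 1.5 times under several settings. The study's scale gave 779 and 424, 4-fold gave 494 and 90, and 1.5-fold gave 2307 and 2056. The lower count became 1650 in CPM, 437 with a minimum of 200 counts, 504 with 50 counts in both libraries and 348 with intervals wholly beyond 2-fold. The cardiomyocyte median (3.47) became 1.59 on the study's scale and 2.82 with the minimum of 200, the fibroblast median (0.79) 0.25 on the study's scale and 0.48 in CPM, and the interferon median (1.56) 1.24 and 1.25. The study's scale adds 1 to each FPKM, which shrinks ratios of genes under 1 FPKM, and the cause of the other shifts was not tested. TMM moved none of these values that far. Of 236 named genes, 218 stayed within their counting interval under TMM, 86 in CPM and 22 on the study's scale. No called gene among them changed sign, and 23 of the 236 differed in sign between scales. No paired analysis was possible because MICFs and GMTMM-iCMs have 1 library each, and for the same reason no library could be left out. The totals of 11861773 and 11904484 counts limit genes near the minimum, and without replicates the spread between cultures is unknown.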

Other observations

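Outside the protein-coding genes, 533 genes had 50 or more counts in at least 1 of both libraries, and 96 of them were higher and 108 lower in the library labelled GMTMM. Among protein-coding genes, 10.8% were higher and 7.46% lower. H19, the imprinted growth-restricting RNA whose locus neighbours Igf2, had 2736 counts in MICFs, 328 in the library labelled GMTMM and 22 in GMTMS-iCMs, 6.77-fold lower in the library labelled GMTMM (6.04 to 7.62). Xist was 5.95-fold lower (5.65 to 6.27), and Ftx, a noncoding RNA of the X inactivation centre, had 96 and 9 counts.

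Among the higher genes, Mir155hg, the host of a microRNA of activated immune cells, had 3, 101 and 216 counts in MICFs, the library labelled GMTMM and GMTMS-iCMs. Mx2, listed as a polymorphic pseudogene, had 103, 2305 and 3004. The T cell receptor constant genes Trbc2 and Trac had 7, 101 and 0 counts and 6, 77 and 8 counts. The long noncoding RNA 5430431A17Rik had 1, 437 and 491 counts, and Gm16685 had 0, 178 and 23. These genes were chosen after their values were seen.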
